A study of Mus musculus with 8 samples.

Results

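The levels of 9 long noncoding RNAs of the mouse brain were read from whole-brain RNA-seq: Malat1, Neat1, Miat, Gas5, Snhg11, Pantr1, Rmst, Dlx6os1 and Sox2ot. They were taken by gene symbol, and they made up 9 of the 24343 genes and 11 of the 34535 transcripts in the table. The brains came from 3 C57BL/6NCrl mice aged 56 to 62 days, with no treatment or genotype to compare, so the grouping available was the mouse. Mouse 1 and mouse 2 each gave 3 libraries and mouse 3 gave 2, which makes 8 libraries in all. The study used these libraries as an estimate of the average RNA level of each gene in the brain. Levels are given in FPKM, a fragment count scaled by transcript length and library size, summed over the transcripts of a gene. A mean ± SD was taken over the 3 mouse means (n = 3 mice), because libraries of 1 mouse are not independent animals, and the p-values compare these 3 mice only.

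Long noncoding RNAs are transcripts that are processed much like messenger RNA but are not known to be translated into protein. Some stay in the nucleus and build or join nuclear bodies, some carry small nucleolar RNAs (snoRNAs) in their introns, and some lie next to or across genes of transcription factors that pattern the developing brain. Malat1 sits in nuclear speckles, Neat1 is the scaffold of paraspeckles and Miat (also called Gomafu) forms its own nuclear domains in neurons. Gas5 and Snhg11 are snoRNA host genes. Pantr1 lies beside Pou3f3, Sox2ot spans Sox2, Dlx6os1 runs opposite Dlx6, and Rmst is known as a partner of the SOX2 protein in neurogenesis.

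Between 1.31 and 2.02 gigabases of aligned sequence lay on the transcripts in each library, and 12728 to 13006 genes reached 1 FPKM. Marker genes were read beside the brain label. The summed level of 5 neuronal markers was 1473 to 1875 FPKM in each library. That of 3 liver genes was 0.441 to 2.70 FPKM, with Alb listed at 0 in all 8 libraries and Apoa2 at a mean of 1.47 FPKM. The sum of 5 blood markers was 530 to 897 FPKM, so RNA of blood was present as well. Mouse 3 stood apart from the other mice. Of the 13001 genes that averaged 1 FPKM or more, 3496 passed a limma F-test across the 3 mice, computed on log2(FPKM + 1), at a Benjamini-Hochberg adjusted p under 0.05. The adjusted p-values below are those of this F-test, and the difference of mouse 3 from the mean of mice 1 and 2 gives the size. With mouse 3 left out 3 genes passed, and 556 had an unadjusted p under 0.05. Without library 2 of mouse 3 the count was 372. Transcript length moved with the difference of mouse 3: its median over genes was 0.68 on the log2 scale in the shortest of 20 length bins, with a median length of 586 nucleotides, and -0.29 in the longest, with a median length of 9021 nucleotides. Some cell type markers moved too. Of all genes tested, 11.9% passed as lower and 15.0% as higher in mouse 3. From mouse 1 to mouse 2 to mouse 3, the summed level was 1865, 1767 and 1520 FPKM for 5 neuronal markers, of which 3 were lower in mouse 3, and 300, 302 and 431 FPKM for 4 astrocyte markers, all 4 of which were higher. For 4 oligodendrocyte markers the sums were 2024, 2068 and 4264 FPKM, with 2 of the 4 higher in mouse 3. For 4 microglial markers they were 57.1, 54.9 and 72.6 FPKM, also with 2 of the 4 higher, and for 3 endothelial markers 25.5, 24.8 and 35.3 FPKM, of which 0 passed. The sums of 2 markers of oligodendrocyte precursors were 9.25, 9.52 and 8.58 FPKM, and 0 passed. Those of 5 choroid plexus markers were 534, 431 and 500 FPKM, with 1 of the 5 lower in mouse 3. The blood markers summed to 618, 612 and 849 FPKM, with 1 of the 5 higher. In RNA from whole tissue, fewer cells of a type and less RNA per cell cannot be told apart. The part of length or cell makeup in the differences below was not tested.

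The 9 genes covered a 255-fold range of level. Snhg11 was highest at 157 ± 53.7 FPKM and Rmst lowest at 0.615 ± 0.102 FPKM, with Malat1, Pantr1, Neat1, Miat, Sox2ot, Gas5 and Dlx6os1 between them in that order. In 3 of the 8 neighbouring pairs of that order the ranges of the mouse means overlapped, namely Snhg11 and Malat1, Neat1 and Miat, and Miat and Sox2ot. By mouse mean, Snhg11 was nevertheless above Malat1 in each of the 3 mice. In library 1 of mouse 1, though, Malat1 was higher, at 220 FPKM against 189 FPKM for Snhg11. The mean of Miat lay above that of Neat1 in mouse 1, and that of Sox2ot above that of Miat in mouse 3. In all, 6 of the 9 genes had a mean of at least 10 FPKM. The plot of levels by library shows the order and the spread together.

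**Figure D1:**
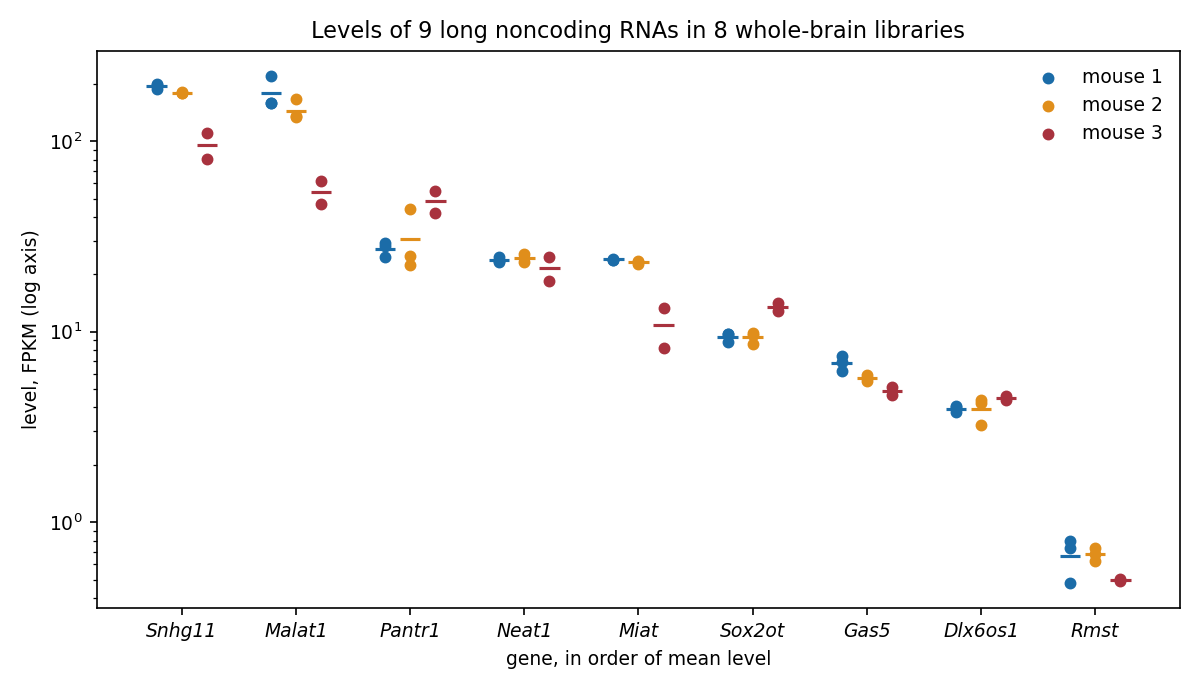
FPKM on a log axis for each of the 9 long noncoding RNAs, in order of mean level, with 1 point per library coloured by mouse and a short bar at each mouse mean. Both libraries of mouse 3 lie below all others for Snhg11, Malat1, Miat and Gas5, and above all others for Sox2ot and, narrowly, Dlx6os1.

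Of the 9 genes, 8 had only transcripts with a noncoding (NR) RefSeq identifier, as did 3734 genes of the table. Snhg11 was listed with a coding (NM) identifier, and the GENCODE vM21 annotation calls the matching transcript protein coding. Among the 3734 genes Malat1 ranked 20, Pantr1 50, Neat1 68, Miat 77, Sox2ot 118, Gas5 191, Dlx6os1 236 and Rmst 658. Among all genes, Snhg11 ranked 333 and Malat1 428. The libraries were made with a kit that selects RNA through its poly(A) tail, and the mature ends of Malat1 and of the long Neat1 form carry no such tail, so how fully these RNAs were captured was not measured.

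**Figure D2:**
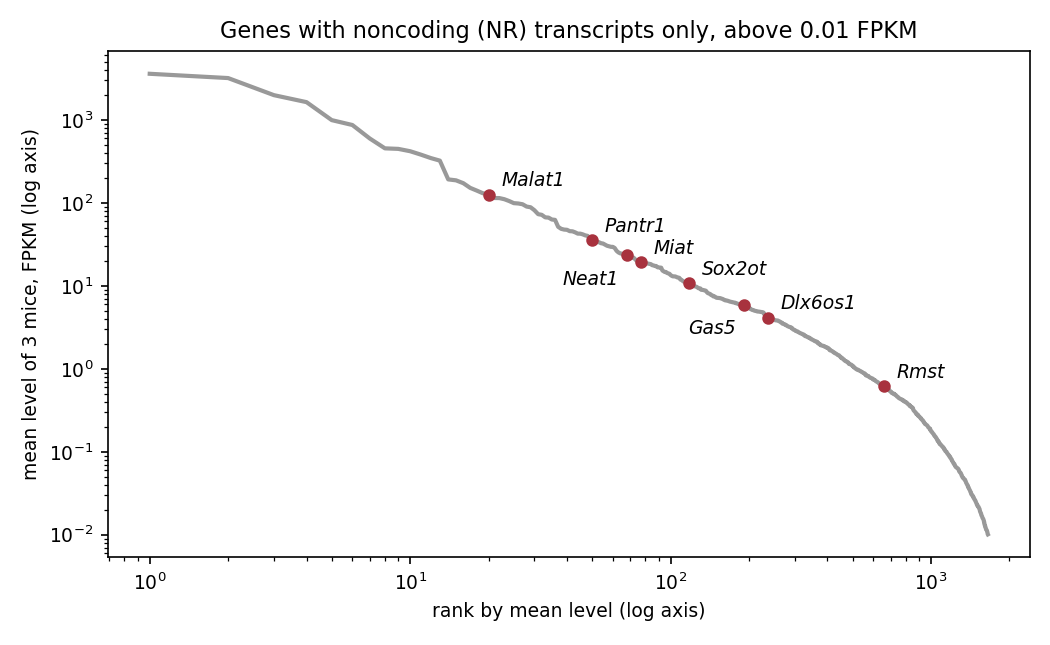
Mean FPKM of the 3 mice against rank, both on log axes, for genes with noncoding (NR) transcripts only and a mean above 0.01 FPKM. The grey line is the ranked genes and the red points are 8 of the 9 long noncoding RNAs, from Malat1 at rank 20 to Rmst at rank 658.

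Malat1 (chr19:5795690-5802671, minus strand, mm10) is an unspliced RNA of 6982 nucleotides. Its end, and that of the long form of Neat1, is made by cutting at a tRNA-like fold rather than by polyadenylation, and an A-rich tract just before the cut pairs with U-rich stretches upstream to shield the RNA from decay. The stretches around these tracts are shown because they set these RNAs apart from polyadenylated transcripts. They are from GENCODE vM21 on GRCm38, read 5′ to 3′ on the minus strand, with the A-rich tract in capitals, at chr19:5795912-5796082 for Malat1 and chr19:5824708-5824808 for Neat1:
Malat1: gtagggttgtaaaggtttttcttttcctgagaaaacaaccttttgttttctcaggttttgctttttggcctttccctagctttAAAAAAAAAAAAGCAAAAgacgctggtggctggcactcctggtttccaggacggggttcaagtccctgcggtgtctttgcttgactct
Neat1: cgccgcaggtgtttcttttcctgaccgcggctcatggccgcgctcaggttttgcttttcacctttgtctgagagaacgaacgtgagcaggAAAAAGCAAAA
The last 11 bases of the long Neat1 transcript, AAAAAGCAAAA, were also in Malat1, whose annotated transcript runs on for 292 bases after them. It was not in the short Neat1 form, and among the 10 GENCODE transcripts matched to the 9 genes it was otherwise only in Snhg11, once. Of all 141767 GENCODE transcripts 0.436% held it, and of the 7040 with at least 5000 bases 2.66% did, which is a count of letters and not of processing sites.

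Malat1 measured 220, 158 and 159 FPKM in the libraries of mouse 1, 166, 135 and 133 FPKM in those of mouse 2, and 61.7 and 47.0 FPKM in those of mouse 3. Both libraries of mouse 3 lay far below the other 6. The mean was 126 ± 64.4 FPKM, and mouse 3 was 2.98-fold lower than the mean of mice 1 and 2, a difference of -1.55 ± 0.16 (SE) in log2(FPKM + 1) with an adjusted p of 0.00359. Of 13001 genes, 16 had a lower value of this difference. The mean coverage of the transcript was 100 to 438 reads per base, and the half-width of the confidence interval given with each value was 1.43 to 2.96% of it, so counting error was small beside the spread between mice. Within mice the SD of log2(FPKM + 1) was 0.24, with 0.13 as the median over genes, and between the 3 mouse means it was 0.91, with 0.15 as the median over genes.

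Neat1 (chr19:5824710-5845480, minus strand) neighbours Malat1 on the same strand. It has a short polyadenylated form of 3185 nucleotides and a long form of 20769 nucleotides, and the long form is the one that builds paraspeckles. The gene measured 23.6, 24.7 and 23.2 FPKM in mouse 1, 25.5, 23.3 and 24.2 FPKM in mouse 2, and 24.5 and 18.5 FPKM in mouse 3. Of the 8 libraries, 7 lay within a narrow band, and library 2 of mouse 3 was below them. The mean was 23.2 ± 1.52 FPKM, with a coefficient of variation over mice of 6.54%, the lowest of the 9 genes. The difference of mouse 3 was -0.17 ± 0.10 in log2(FPKM + 1) with an adjusted p of 0.402, and it was 0.02 without library 2 of mouse 3.

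Nearly all of the Neat1 signal was assigned to the short form, at 23.2 ± 1.51 FPKM. The long form was at 0.0244 ± 0.0131 FPKM, from 0.00806 to 0.0571 FPKM, which was 0.0329 to 0.232% of the gene in a library. In 3 libraries the lower confidence bound of the long form was 0, so its level was at the edge of detection. The short form overlaps the start of the long one over nearly all of its length, and reads there can belong to either.

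Miat (chr5:112213228-112228948, minus strand) is a spliced nuclear RNA of neurons. It carries repeats of TACTAAC, the sequence of the yeast intron branch point, through which it is known to bind the splicing factor SF1. These repeats are shown because they are the sequence feature for which Miat is known. They are from the GENCODE vM21 transcript Miat-201 on GRCm38, 5′ to 3′ on the minus strand, with each TACTAAC in capitals, at chr5:112217309-112217460 for the first stretch and chr5:112216752-112216812 for the second:
Miat first stretch: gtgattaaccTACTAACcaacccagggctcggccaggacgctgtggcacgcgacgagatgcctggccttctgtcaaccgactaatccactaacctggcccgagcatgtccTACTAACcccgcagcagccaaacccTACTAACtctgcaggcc
Miat second stretch: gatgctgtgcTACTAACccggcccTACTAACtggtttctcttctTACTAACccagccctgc
The transcript held 6 copies within 689 bases, the first starting at base 4538 and the last at base 5220. TACTAAC was found on the transcribed strand of 3.60% of GENCODE transcripts and of 15.7% of those with at least 5000 bases. At least 6 copies were found in 5 transcripts of 141767. As the cutoff was the count of Miat-201 itself, that transcript was bound to be among the 5. Whether the rest were also forms of Miat was not looked up. Of the other 8 genes, only the long Neat1 form held TACTAAC.

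Miat measured 23.9, 23.8 and 24.1 FPKM in mouse 1, 23.5, 22.7 and 23.3 FPKM in mouse 2, and 13.4 and 8.24 FPKM in mouse 3. The first 6 libraries lay close together and both libraries of mouse 3 lay below them. The mean was 19.3 ± 7.38 FPKM, and mouse 3 was 2.18-fold lower than mice 1 and 2, by -1.09 ± 0.14 in log2(FPKM + 1) with an adjusted p of 0.00515. Its 2 listed transcripts, NR_003718 with 8716 nucleotides and NR_033657 with 8760, span the same locus. NR_003718 was higher at 16.8 ± 5.99 FPKM, against 2.56 ± 1.39 FPKM for NR_033657. The share of NR_033657 was 27.2, 4.40 and 11.6% in mouse 1, 5.01, 24.0 and 13.6% in mouse 2, and 4.5 and 16.0% in mouse 3. That share varied about as widely among libraries of 1 mouse as over all 8, while the sum of both forms was steady within mice 1 and 2.

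**Figure D3:**
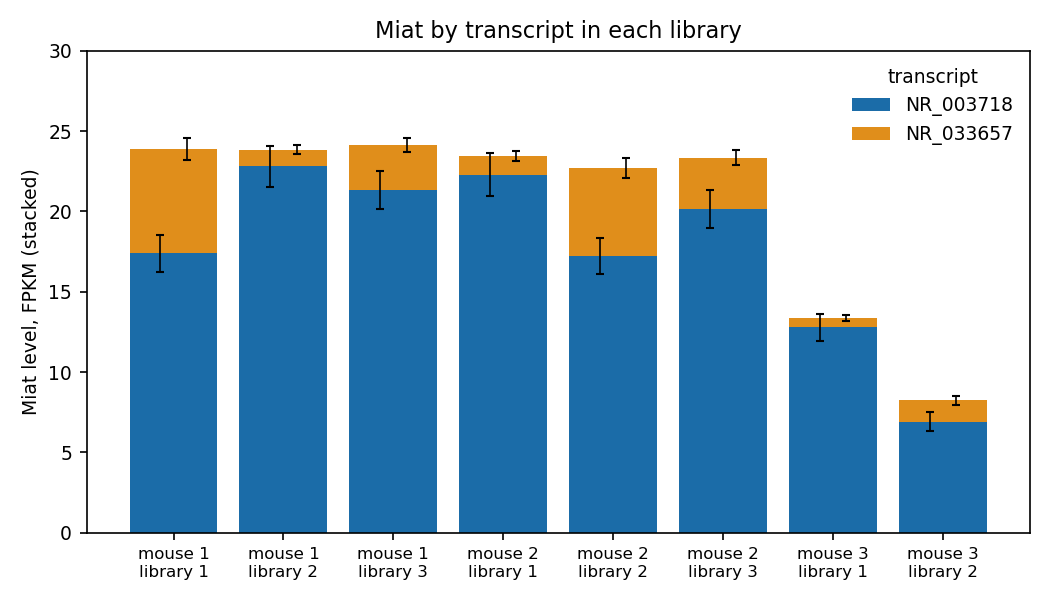
Miat FPKM in each of the 8 libraries, stacked by transcript, with NR_003718 below and NR_033657 above; error bars are the confidence interval given with each transcript's value. The total height is 22.7 to 24.1 FPKM in the 6 libraries of mice 1 and 2 and 13.4 and 8.24 FPKM in mouse 3, while the upper share ranges from 4.40 to 27.2%.

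Gas5 (chr1:161035166-161038537, plus strand) hosts many box C/D snoRNAs in its introns and is known to accumulate in cells whose growth has stopped. It measured 6.22, 7.45 and 6.97 FPKM in mouse 1, 5.72, 5.54 and 5.95 FPKM in mouse 2, and 4.67 and 5.14 FPKM in mouse 3. The libraries of the 3 mice did not overlap, with mouse 1 highest and mouse 3 lowest. Mouse means in log2(FPKM + 1) were 2.98, 2.75 and 2.56. Mouse 1 thus lay above mouse 2 by more than mouse 2 lay above mouse 3. The mean was 5.84 ± 0.991 FPKM, and the difference of mouse 3 was -0.30 ± 0.08 in log2(FPKM + 1). The F-test across the 3 mice, which is not a test of mouse 3 alone, gave an adjusted p of 0.0282. That call was lost when any of 5 of the 8 libraries was left out, at adjusted p-values up to 0.0951. The listed model of 2554 nucleotides corresponds to a GENCODE transcript classed as retaining an intron, among 25 transcripts of 346 to 2556 nucleotides, so spliced forms were not separated. The hosted Snord47 (chr1:161038092-161038156), 65 nucleotides long, was listed at 0 in all 8 libraries. The kit selects RNA through its poly(A) tail, and capture of so short an RNA was not measured, so the 0 does not show its absence.

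Snhg11 (chr2:158375638-158386145, plus strand, 5864 nucleotides) is a snoRNA host known for its high level in neurons. It measured 189, 199 and 198 FPKM in mouse 1, 179, 181 and 179 FPKM in mouse 2, and 110 and 80.2 FPKM in mouse 3. The libraries of mice 1 and 2 differed little, and both of mouse 3 lay well below. The mean was 157 ± 53.7 FPKM, and mouse 3 was 1.97-fold lower, by -0.99 ± 0.11 in log2(FPKM + 1) with an adjusted p of 0.00414. Of 8 other snoRNA host genes of the Snhg series that were tested, 3 were higher in mouse 3 and 0 were lower, against 15.0% and 11.9% of all genes tested, with a median difference of 0.49, and whether Snhg11 differed from them was not tested. The 3 were Snhg1, Snhg6 and Snhg12, and none of them passed as higher in the fit with each library's trend with length removed.

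Pantr1 (chr1:42648200-42694825, minus strand, 546 nucleotides) lies beside Pou3f3, a POU-domain factor of cortical neurons. It measured 24.6, 28.0 and 29.4 FPKM in mouse 1, 22.3, 44.3 and 24.9 FPKM in mouse 2, and 42.2 and 55.0 FPKM in mouse 3. Library 2 of mouse 2 lay among those of mouse 3, so the mice overlapped. The mean was 35.5 ± 11.5 FPKM, and mouse 3 exceeded the others by 0.75 ± 0.23 in log2(FPKM + 1) with an adjusted p of 0.0782, which did not pass. Without library 2 of mouse 2 the difference was 0.90 and passed, with an adjusted p of 0.0126. With the trend of length removed, the difference was -0.000501. The half-width of the confidence interval was 12.6 to 23.1% of a value. Pou3f3 (chr1:42697146-42700209) was at 13.7 ± 0.760 FPKM, with a difference of -0.05 ± 0.08 and an adjusted p of 0.350. With libraries scaled to the same total the difference of Pou3f3 was -0.33, with an adjusted p of 0.0444.

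Rmst (chr10:92081746-92165178, minus strand, 2687 nucleotides) is active in neurogenesis and in the midbrain. It measured 0.729, 0.793 and 0.482 FPKM in mouse 1, 0.678, 0.623 and 0.736 FPKM in mouse 2, and 0.488 and 0.505 FPKM in mouse 3. Mouse 3 lay within the range of mouse 1. Coverage was 0.987 to 1.71 reads per base and the half-width of the interval 37.1 to 48.5% of a value, and at under 1 FPKM the gene stayed out of the test. With no minimum level its difference was -0.16 ± 0.08 with an adjusted p of 0.400. The microRNA Mir1251 within its locus (chr10:92137140-92137223) was listed at 0 in all 8 libraries, which for so short an RNA in poly(A)-selected libraries does not show its absence.

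Dlx6os1 (chr6:6820546-6869533, minus strand, 4247 nucleotides), also called Evf2, runs across Dlx6 in the opposite direction and is known to regulate Dlx5 and Dlx6 in the forming interneurons of the forebrain. It measured 4.0, 4.06 and 3.79 FPKM in mouse 1, 4.39, 3.22 and 4.22 FPKM in mouse 2, and 4.40 and 4.59 FPKM in mouse 3. Mouse 3 was above the other libraries only by a hair. The mean was 4.13 ± 0.314 FPKM, and the difference of 0.15 ± 0.10 did not pass, with an adjusted p of 0.490.

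The protein-coding neighbours of Dlx6os1 both differed between the mice. Dlx5 (chr6:6877801-6882068) measured 3.88, 4.06 and 3.71 FPKM in mouse 1, 3.30, 3.17 and 3.69 FPKM in mouse 2, and 2.21 and 2.01 FPKM in mouse 3, a difference of -0.57 ± 0.09 with an adjusted p of 0.00701. For Dlx5 both libraries of mouse 3 lay below the other 6, and without library 2 of mouse 3 its adjusted p was 0.0594. Dlx6 (chr6:6863334-6867970) measured 3.86, 4.91 and 5.07 FPKM in mouse 1, 3.28, 2.89 and 3.43 FPKM in mouse 2, and 3.09 and 2.04 FPKM in mouse 3, a difference of -0.46 ± 0.13 with an adjusted p of 0.0265. For Dlx6 the libraries of mice 2 and 3 overlapped, and mouse 1 lay above mouse 2 by more than mouse 2 lay above mouse 3, with mouse means of 2.48, 2.07 and 1.82 in log2(FPKM + 1). The call on Dlx6 was lost without library 2 or library 3 of mouse 1 (adjusted p of 0.0842 and 0.0875), without library 2 of mouse 3 (0.105) and with no minimum level (0.0605). Whether Dlx6os1 differed from its neighbours in this respect was not tested. The annotated exons of Dlx6os1 and Dlx6 shared 0 bases, and whether counting used strand is not given in the sources used here.

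Sox2ot (chr3:34560381-34677993, plus strand, 2970 nucleotides) spans Sox2, the factor of neural stem cells that adult glia also express, and is transcribed in the same direction. It measured 8.87, 9.68 and 9.66 FPKM in mouse 1, 8.66, 9.84 and 9.58 FPKM in mouse 2, and 12.9 and 14.1 FPKM in mouse 3. Both libraries of mouse 3 lay above the other 6, which were close together. The mean was 10.7 ± 2.35 FPKM, and mouse 3 was 1.43-fold higher, by 0.48 ± 0.08 in log2(FPKM + 1) with an adjusted p of 0.00976. Without library 2 of mouse 3 the adjusted p was 0.0880, and with libraries scaled to the same total the difference was 0.20 with an adjusted p of 0.113.

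Sox2 (chr3:34650005-34652460) was at 14.7 ± 0.924 FPKM, with a difference of 0.10 ± 0.12 and an adjusted p of 0.562. The exons of the transcript Sox2ot-211 shared 0 bases with the annotated exons of Sox2, and other Sox2ot transcripts were not compared. The microRNA Mir1897 within the locus (chr3:34638464-34638542) was listed at 0 in all 8 libraries, with the same limit as for Mir1251.

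Of the 8 genes tested, 5 differed between the mice, against 26.9% of all genes tested and 19.5% of the 513 tested with noncoding transcripts only. Of these, 4 (Malat1, Miat, Gas5 and Snhg11) were lower in mouse 3, against 11.9% of all genes in that direction, and 1, Sox2ot, was higher, against 15.0%. Both libraries of mouse 3 lay below the other 6 for those 4 genes, as for 21.7% of all genes, and above them for Sox2ot and Dlx6os1, as for 26.5%. Over all genes tested, the median SD of log2(FPKM + 1) was 0.15 between mouse means and 0.13 within mice. Between mouse means against within mice, the SD was 0.63 against 0.20 for Miat, 0.57 against 0.14 for Snhg11 and 0.28 against 0.08 for Sox2ot. For Gas5 it was 0.21 against 0.09, and for Pantr1 0.44 against 0.36. Neat1, at 0.10 against 0.13, and Dlx6os1, at 0.09 against 0.12, had the smaller SD between mouse means. The share of all genes with a larger SD between mouse means than within mice was not counted. The median difference of mouse 3 was -0.24 over the 8 genes and 0.02 over all genes. Of the 13001 genes tested, 36 had a lower difference of mouse 3 than Snhg11, whether they passed or not. Those that passed with a difference at least as low as that of Snhg11 were 10, or 0.0769%. As the cutoff was the value of Snhg11 itself, Malat1, Miat and Snhg11 were bound to be among them. These 3 kept their direction and passed in each of the 8 fits with 1 library left out. Between mice 1 and 2 alone 0 of the 8 passed limma's test, and 1, Gas5, had an unadjusted p under 0.05 at 0.0222.

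Length moved with these differences, and 1 alternative took out a smooth trend with it. The part of length in the differences was not tested by this. With each library's trend with length removed, the difference was -1.33 for Malat1, -0.83 for Miat and -0.81 for Snhg11. All 3 passed in that fit, at adjusted p-values of 0.00178, 0.00178 and 0.00112. Gas5 at -0.33 and Sox2ot at 0.49 passed as well, so 5 of 8 did, 4 of them lower and 1 higher in mouse 3, against 22.0% of all genes, 10.4% lower and 11.6% higher. In the plot against length, Malat1, Miat and Snhg11 lie below most genes of like length, while Pantr1 lies near the median line.

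**Figure D4:**
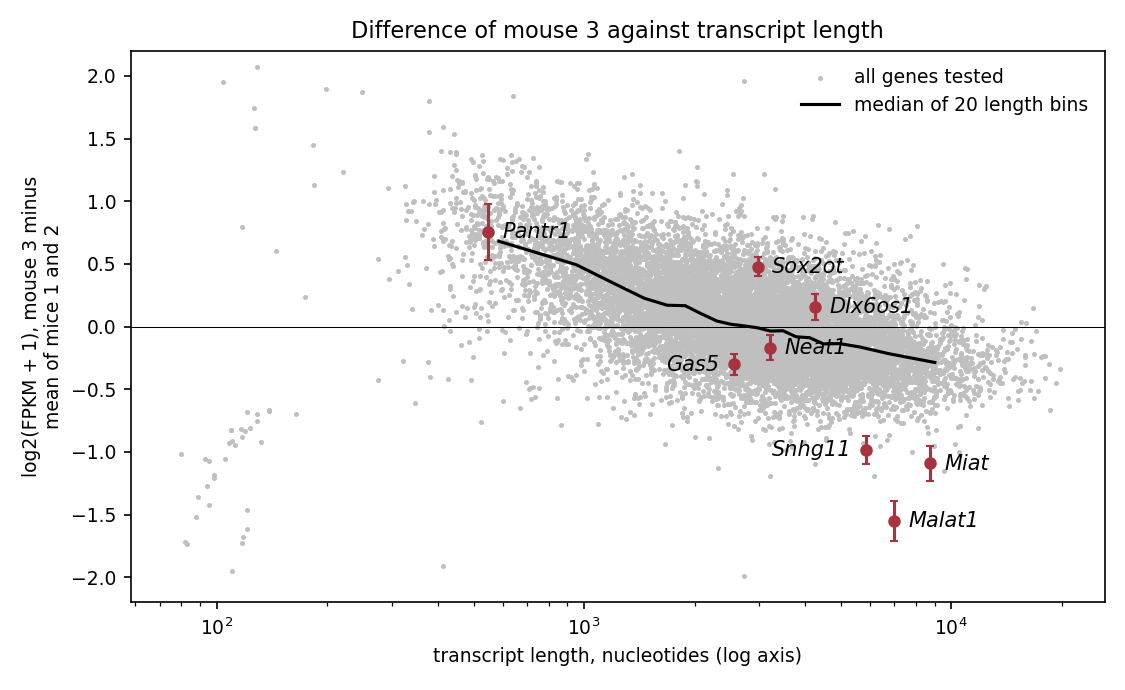
Difference of mouse 3 from the mean of mice 1 and 2 in log2(FPKM + 1) against transcript length on a log axis, with 1 grey point for each gene tested (25 of 13001 lie outside the plotted range), a black line for the median of 20 length bins and red points with SE bars for the 8 long noncoding RNAs tested. Malat1 at -1.55, Miat at -1.09 and Snhg11 at -0.99 lie below most genes of like length, and Pantr1 at 0.75 lies near the line.

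The promoters of Malat1, Miat and Snhg11 are shown because these 3 genes were lower together in mouse 3. They are RefSeq sequences on GRCm38.p6, from 250 bases before to 50 after the start of each gene, 5′ to 3′ on the strand of the gene, with the GC box GGGCGG, in either orientation, in capitals. They lie at chr19:5802623-5802922 (minus), chr5:112228899-112229198 (minus) and chr2:158375463-158375762 (plus):
Malat1 promoter: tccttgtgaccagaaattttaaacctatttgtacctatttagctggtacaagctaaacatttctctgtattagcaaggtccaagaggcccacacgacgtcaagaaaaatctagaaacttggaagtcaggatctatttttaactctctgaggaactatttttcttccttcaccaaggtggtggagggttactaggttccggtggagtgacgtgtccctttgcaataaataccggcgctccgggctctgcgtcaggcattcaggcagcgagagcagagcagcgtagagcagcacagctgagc
Miat promoter: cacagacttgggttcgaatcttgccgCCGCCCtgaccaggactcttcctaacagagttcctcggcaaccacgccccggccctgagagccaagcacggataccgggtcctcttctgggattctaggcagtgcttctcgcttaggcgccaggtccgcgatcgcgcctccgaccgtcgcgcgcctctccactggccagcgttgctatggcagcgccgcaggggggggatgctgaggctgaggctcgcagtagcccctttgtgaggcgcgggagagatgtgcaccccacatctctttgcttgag
Snhg11 promoter: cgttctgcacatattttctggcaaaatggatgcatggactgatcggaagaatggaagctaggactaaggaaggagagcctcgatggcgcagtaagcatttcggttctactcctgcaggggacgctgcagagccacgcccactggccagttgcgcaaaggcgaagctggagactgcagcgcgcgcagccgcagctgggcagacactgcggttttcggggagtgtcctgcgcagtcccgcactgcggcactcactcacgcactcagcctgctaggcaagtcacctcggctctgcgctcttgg
The 4 motifs searched on both strands were TATAAA, the cyclic AMP response element TGACGTCA, GGGCGG and CCAAT. None was found in the windows of Malat1 and Snhg11, and Miat held GGGCGG, which 35.7% of the 32851 promoters held. So these 3 windows shared none of the 4 motifs. Promoters were found for 5 of the 9 genes, 7 in all. Both Gas5 windows held GGGCGG and 1 of them TGACGTCA, held by 1.79% of promoters, and of the Dlx6os1 windows 1 held TATAAA (13.6% of promoters) and 1 CCAAT (37.4%).

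For the 3 genes that varied most between mice, the genes nearest in pattern were sought by the root mean square difference of centred log2(FPKM + 1) over the 8 libraries. For Malat1 these were Zc3h13 at 0.23 and Rbm25, a splicing regulator, at 0.25. For Miat they were Meg3, an imprinted long noncoding RNA, at 0.05 and Gm17066 at 0.08. For Snhg11 they were Col6a1, a chain of type VI collagen, at 0.06 and Gprasp1, a receptor sorting protein of neurons, at 0.06. Malat1 was matched less closely than Miat or Snhg11. The same 8 libraries, with the contrast of mouse 3 to the other mice, enter each of these values.

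A list of 75 symbols of other long noncoding RNAs gave the surroundings, of which 51 were in the table, 28 were tested and 5 were listed at 0 in all libraries. The list held Norad as well as 2900097C17Rik, names of the same gene, so a symbol not in the table need not be a gene not in it. Of the 28, 11 differed between mice, 7 lower and 4 higher in mouse 3, against 26.9% of all genes tested, 11.9% lower and 15.0% higher. Their median difference was 0.04. The highest in level were 2900097C17Rik, known as Norad, at 347 ± 4.88 FPKM, Meg3 at 187 ± 72.0, Rian at 111 ± 4.39, 1700020I14Rik at 71.7 ± 6.44 and Peg13 at 63.0 ± 7.73 FPKM. By this mean over mice Snhg11 and Malat1 lay between Meg3 and Rian, but in mouse 3 Rian, at 113 FPKM, was above Meg3 at 105, Snhg11 at 95.1 and Malat1 at 54.4 FPKM. Norad and Rian varied little between the mice, at differences of 0.03 and 0.04, with adjusted p-values of 0.920 and 0.514. This depended on scaling. With libraries scaled to the same total they were at -0.27 and -0.25, with adjusted p-values of 0.0683 and 0.0498. The median over all genes was -0.23 in that fit.

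Among the 11 that differed, Meg3, Snhg6, Lhx1os, Snhg1 and Mir124a-1hg had the widest ranges of mouse means. Meg3 (chr12:109540996-109571729) measured 235, 241 and 240 FPKM in mouse 1, 211, 221 and 219 FPKM in mouse 2, and 128 and 81.2 FPKM in mouse 3, with a difference of -1.15 ± 0.14 and an adjusted p of 0.00512. Both libraries of mouse 3 lay below the other 6, as they did for Miat. Mir124a-1hg, host of the neuronal microRNA miR-124, was lower in mouse 3 by -0.78 ± 0.12 with an adjusted p of 0.00778. Snhg6 at 0.91 ± 0.23, Lhx1os at 0.82 ± 0.18 and Snhg1 at 0.80 ± 0.18 were higher. With the trend of length removed these 3 were at 0.02, 0.13 and -0.03 and did not pass, while Meg3 at -0.88 and Mir124a-1hg at -0.69 did.

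**Figure D5:**
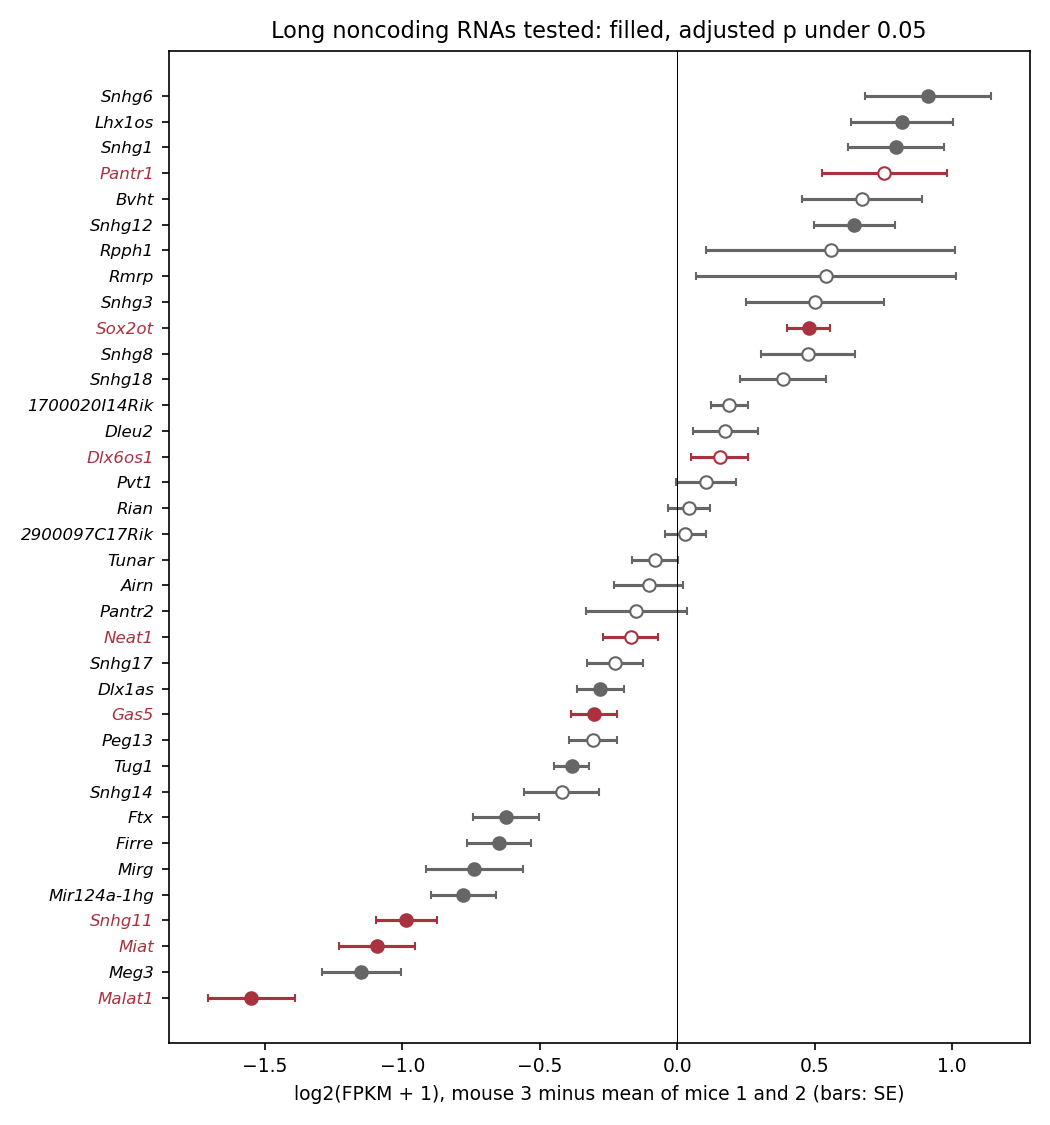
Difference of mouse 3 from the mean of mice 1 and 2 in log2(FPKM + 1), with SE bars, for the 8 long noncoding RNAs tested (red) and 28 others (grey), in order; filled points have an adjusted p under 0.05. Malat1 at -1.55 is lowest of the 36, followed by Meg3, Miat and Snhg11, and Snhg6 at 0.91 is highest.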

How the data were processed

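RNA came from whole brains of 3 mice, with 3, 3 and 2 libraries, and was made into libraries with an mRNA kit for Illumina sequencing. The authors deposited FPKM values per RefSeq transcript, with confidence bounds and coverage. The submitters' processing notes name TopHat, Cufflinks and mm10, and their versions and settings are not given in the sources used here. The deposited coverage signal was used only for depth, since read counts are not given. Confidence bounds cover estimation error within a library only.

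FPKM was summed per gene. Genes with a mean over mice of at least 1 FPKM (13001) were fitted in limma 3.58.1 (R 4.3.3) on log2(FPKM + 1) with mouse as factor, with a moderated F-test, an intensity trend and Benjamini-Hochberg adjustment over all 13001 genes at 0.05. A fold on this scale understates the change of low genes. Libraries are replicates of a mouse and may be technical. Alternatives were a pseudocount of 0.1, no minimum level, libraries scaled to one total, the length trend removed (lowess, span 0.3), the highest transcript only, a constant prior variance, a replicate block, and each library left out; mice 1 and 2 alone were added after seeing the data. The script was tested on simulated data. Named genes were the 9 genes, their locus partners, the 5 highest and 5 most variable of the other noncoding RNAs, and the 2 nearest genes in pattern to each of the 3 most variable. The genes and lists were chosen with earlier results of these data known. Transcripts were matched to GENCODE vM21 (11 of 11) and promoters to RefSeq (5 of 9 genes).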

Additional observations from a re-analysis of the deposited data

Results flagged for a closer look

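Of 28 sets of 8 library values that were examined, 2 held a library far from the others, and chance gives this in about 1 in 20. For Neat1 the lowest value, 18.5 FPKM, came from library 2 of mouse 3, and the nearest was 23.2 FPKM, a gap of 0.671 of the whole range. Its short transcript NR_003513 gave the same picture, at 18.5 FPKM with the nearest at 23.2 FPKM, and since it carries nearly all of the gene's signal it is not a separate case.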

How the results depend on the processing

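The number of genes differing between mice was 3496. It was 5694 with libraries scaled to the same total, 372 to 4131 with 1 library left out, and 3 with mice 1 and 2 only. Scaling moved the median difference of all genes from 0.02 to -0.23, and the share of calls lower in mouse 3 from 44.1 to 85.0%. Of the 8 noncoding RNAs tested, 5 passed, against 3 to 5 with 1 library left out (3 without library 2 of mouse 3) and 0 with mice 1 and 2 only. Malat1, Miat and Snhg11 passed under all 7 other alternatives over 3 mice, with differences of -1.84 to -1.33, -1.37 to -0.83 and -1.28 to -0.81. The direction turned for Pantr1 with the length trend removed (-0.000501), for Dlx6os1 with scaled libraries (-0.0879) and for Neat1 without library 2 of mouse 3 (0.0249). Neat1 passed with scaled libraries (-0.46, adjusted p of 0.0364) and without library 1 of mouse 3 (-0.364, adjusted p of 0.0266), and Gas5 did not with no minimum level (adjusted p of 0.0536). The cause was not tested. Of the other 28 noncoding RNAs 11 passed, 7 lower and 4 higher in mouse 3. With libraries scaled to the same total 15 passed, 12 of them lower, and with the length trend removed 9 did, all lower. The count was 14 without library 1 of mouse 2 and 8 without library 2 of mouse 1. With no minimum level, a fit that also takes in listed genes under 1 FPKM, it was 5.

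The labels do not say whether library numbers pair the mice. Deviations of same-numbered libraries correlated at 0.00276 to 0.107, and those of libraries with different numbers at -0.135 to 0.0645. These small values do not settle whether there is a pairing. With the replicate block 3385 genes and 6 of the noncoding RNAs passed, Pantr1 being added at an adjusted p of 0.0411. Depth limits Rmst and the long Neat1 form, and with 3 mice nothing can be said about mice in general.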
